A study of Homo sapiens with 2 samples.

Results

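The cleavage stimulation factor is the protein complex that recognises the downstream sequence of a poly(A) site and helps the RNA to be cut there. The mRNAs of its subunits were read in an RNA immunoprecipitation (RIP-seq) experiment that used one of these subunits, CSTF2, as the captured protein. The members are the 4 genes CSTF1, CSTF2, CSTF2T and CSTF3, taken by their symbols from a table of 14914 features, and all 4 were present. The cells were HUH7, an established line of human hepatocellular carcinoma. The labels name no treatment, genotype or transgene. RNA bound to CSTF2 (IP, 1 library) was compared with input RNA of the same line (Input, 1 library). The aim was to find the RNAs that CSTF2 may bind. No mock or control-antibody capture was analysed here.

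As background, mRNA 3′ ends form when a pre-mRNA is cut downstream of a hexamer signal and a poly(A) tail is added. The cleavage and polyadenylation specificity factor reads the hexamer, and the cleavage stimulation factor reads the U-rich or GU-rich element beyond the cut. CSTF2 carries the RNA recognition motif that contacts this element. CSTF2T is its autosomal paralog, a retrogene known for its part in male germ cells. CSTF3 is the scaffold that holds the complex together and contacts the specificity factor. CSTF1 is the WD-repeat subunit, known to bind the C-terminal domain of RNA polymerase II and the tumour suppressor BARD1.

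Assigned reads numbered 3220045 in the IP library and 9517885 in the Input library, so a gene of the same level has fewer reads in the IP. Levels are in RPKM, reads scaled to feature length and to the assigned reads of the library. With 1 library per group no difference has a replicate check and no p-value is given. The 95% intervals rest on reads recovered from the deposited values and cover counting error only. No molecular identifiers are stated, so PCR copies of 1 molecule may be counted as several reads. Mitochondrially encoded genes took a like share of both libraries, 61.8% of the IP and 61.6% of the Input reads. All 10 hepatocyte markers looked up were in the table, between 4.25 and 311 RPKM in the Input. None of 3 endothelial markers was listed, and the 2 of 5 blood markers listed, CD68 and LYZ, reached at most 3.12 RPKM in either library. Of 4 stromal markers, COL1A2 and LUM were listed, at 1.22 and 7.27 RPKM in the Input.

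CSTF2 and CSTF2T encode closely related proteins, so it matters whether reads of one could be counted for the other. Their start of coding sequence is shown here because it covers the beginning of the RNA recognition motif in both genes. Each line gives coding bases 1 to 120 from the start codon, 5′ to 3′, in the GENCODE 29 principal transcripts of both genes, with the 20 bases that differ between the lines in capitals.
CSTF2: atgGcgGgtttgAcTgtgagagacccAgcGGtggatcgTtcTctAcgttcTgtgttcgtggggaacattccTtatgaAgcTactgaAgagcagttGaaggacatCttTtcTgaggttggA
CSTF2T: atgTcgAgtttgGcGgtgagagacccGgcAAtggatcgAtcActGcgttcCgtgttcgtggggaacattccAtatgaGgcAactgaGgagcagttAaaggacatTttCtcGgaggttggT

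On GRCh38 the CSTF2 stretch lies on the plus strand in 2 coding exons, chrX:100820417-100820474 and chrX:100821527-100821588. The CSTF2T stretch is unbroken, on the minus strand at chr10:51699430-51699549, inside the only exon of that gene. Over the whole coding sequences, 1731 bases in CSTF2 and 1848 in CSTF2T, 1361 of 1686 aligned bases were identical (80.7%). The longest run that both coding sequences share is 41 bases near their 3′ end. It lies at coding bases 1669 to 1709 of CSTF2 and 1786 to 1826 of CSTF2T. It is printed as the place in these coding sequences where reads are hardest to assign.
Shared run: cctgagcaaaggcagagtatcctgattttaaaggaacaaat

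Of the 2271 different 50-base stretches in CSTF2 transcripts, 0 occurred in CSTF2T or in any other GENCODE 29 gene. The same held for the 4056 stretches of CSTF2T and the 4602 of CSTF3. Of 4943 stretches of CSTF1, 28 (0.566%) also occurred in other genes. The length of the reads is not given in the sources used here, so a read of 41 bases or fewer could still fall in the shared run. Outside the coding sequences, shared runs shorter than 50 bases were not searched for. Matches that allow mismatches were not searched for either.

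CSTF2, the captured subunit, had by far the highest IP level of the 4 genes. It measured 487 RPKM in the IP (95% Poisson interval 471 to 503, 3429 reads) and 6.97 RPKM in the Input (5.88 to 8.20, 145 reads). The intervals of the libraries lie far apart. The RPKM ratio of IP to Input was 69.9 (exact conditional interval 59.2 to 83.1). In the authors' deposited table its log2 fold change is 6.13. CSTF2 thus went from rank 1861 by RPKM among 11468 nuclear protein-coding features in the Input to rank 6 in the IP. Its reads were 0.00152% of the Input library and 0.106% of the IP library. The gene (ENSG00000101811.13) spans chrX:100820359-100840932 on the plus strand and has 2187 bases of exon.

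CSTF2T, the retrogene paralog, was the second highest by ratio, far below CSTF2. It measured 4.77 RPKM in the IP (3.66 to 6.10, 63 reads) and 2.51 RPKM in the Input (2.04 to 3.06, 98 reads). These intervals do not overlap, and the ratio was 1.90 (1.36 to 2.63). Its log2 fold change in the authors' deposited table is 0.92. CSTF2T (ENSG00000177613.8) is a single exon of 4105 bases on the minus strand, chr10:51695487-51699591. It lies inside the gene PRKG1, which runs on the opposite strand and was not among the listed features.

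CSTF3, the scaffold subunit, had near equal levels. It measured 5.09 RPKM in the IP (3.99 to 6.39, 74 reads) and 4.23 RPKM in the Input (3.64 to 4.90, 182 reads). The intervals overlap, and that of the ratio, 1.20 (0.905 to 1.58), includes 1. Its log2 fold change in the authors' deposited table is 0.26. CSTF3 (ENSG00000176102.12) lies on the minus strand at chr11:33077188-33162371. The length recovered from the table, 4517 bases, is 4 bases more than the exon length in GENCODE 29 (4513), while the lengths of the other 3 genes were equal to theirs.

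CSTF1, the WD-repeat subunit, had the lowest level in both libraries. It measured 1.04 RPKM in the IP (0.592 to 1.68, 16 reads) and 1.05 RPKM in the Input (0.775 to 1.39, 48 reads). The ratio was 0.985 with a wide interval (0.522 to 1.77), so a difference smaller than about that range was not detectable at this depth. Its log2 fold change in the authors' deposited table is -0.02. CSTF1 (ENSG00000101138.11) lies on the plus strand at chr20:56392371-56406369 with 4800 bases of exon.

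**Figure D1:**
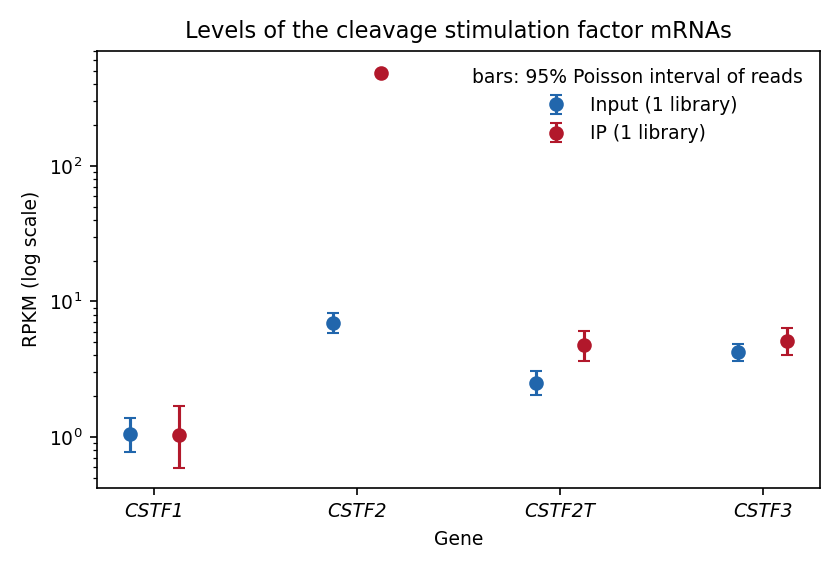
RPKM of the 4 genes in the Input (blue) and IP (red) library on a log axis, 1 point per library, with bars for the 95% Poisson interval of the reads. CSTF2 stands at 487 RPKM in the IP, while the other 3 genes lie between 1.04 and 5.09 RPKM there.

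Ordered by Input level, CSTF2 was followed by CSTF3, CSTF2T and CSTF1, and no neighbouring pair in that order had overlapping intervals. CSTF2 was 1.65 times CSTF3, CSTF3 was 1.69 times CSTF2T, and CSTF2T was 2.39 times CSTF1 in RPKM. In the IP the order was the same, but CSTF2 was 95.7 times CSTF3. CSTF3 and CSTF2T, at 5.09 and 4.77 RPKM, had overlapping intervals there, and CSTF2T was 4.60 times CSTF1. By ratio the order was CSTF2, CSTF2T, CSTF3 and CSTF1. CSTF2 lay apart from CSTF2T, whereas the intervals of CSTF2T and CSTF3, and of CSTF3 and CSTF1, overlapped. Without CSTF2, the summed reads of the other 3 genes (153 IP, 328 Input) gave a ratio of 1.38 (1.13 to 1.68). That interval holds the median RPKM ratio of all features, 1.16. Without CSTF2T too, CSTF1 and CSTF3 (90 IP reads, 230 Input reads) gave 1.16 (0.896 to 1.48), an interval that includes 1.

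The balance between the paralogs therefore differed between the libraries. Per length, CSTF2T made up 26.5% (21.6 to 31.9, Clopper-Pearson interval on reads) of the summed CSTF2 and CSTF2T level in the Input and 0.969% (0.745 to 1.24) in the IP. CSTF2 was 2.78 times CSTF2T by RPKM in the Input and 102 times in the IP. With the reads of both genes summed (3492 IP, 243 Input), the ratio was 42.5 (37.3 to 48.6).

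To read these values against the table, 1 RPKM was added to each level and the log2 ratio of IP to Input was taken, a scale that understates the change of low features. The 9880 features whose RPKM averaged 1 or more over both libraries were used, a filter that all 4 genes passed, CSTF1 narrowly at a mean of 1.04 RPKM. On that scale 9.88% of features were higher by 2-fold or more and 6.83% were lower by as much. Of the 4 genes, 1 was higher by that much, CSTF2, and 0 were lower. The log2 ratio was 5.94 for CSTF2, 0.72 for CSTF2T, 0.22 for CSTF3 and -0.01 for CSTF1, against a median of 0.17 over all features. CSTF2 ranked 1 of 9880, CSTF2T 1960, CSTF3 4681 and CSTF1 6020. The counting interval of the RPKM ratio lay wholly above 1 for 2 of the 4 genes, CSTF2 and CSTF2T, and for 36.1% of all features. It lay wholly below 1 for none of the 4 and for 20.1% of all features. Among only 4 genes, counts of 1 and 2 are not read as standing above these background shares, and CSTF2 is described by the size of its ratio. The ratio compares captured with input RNA of 1 line. In the Input level, which is bulk RNA, fewer cells with a transcript and less of it per cell cannot be told apart.

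**Figure D2:**
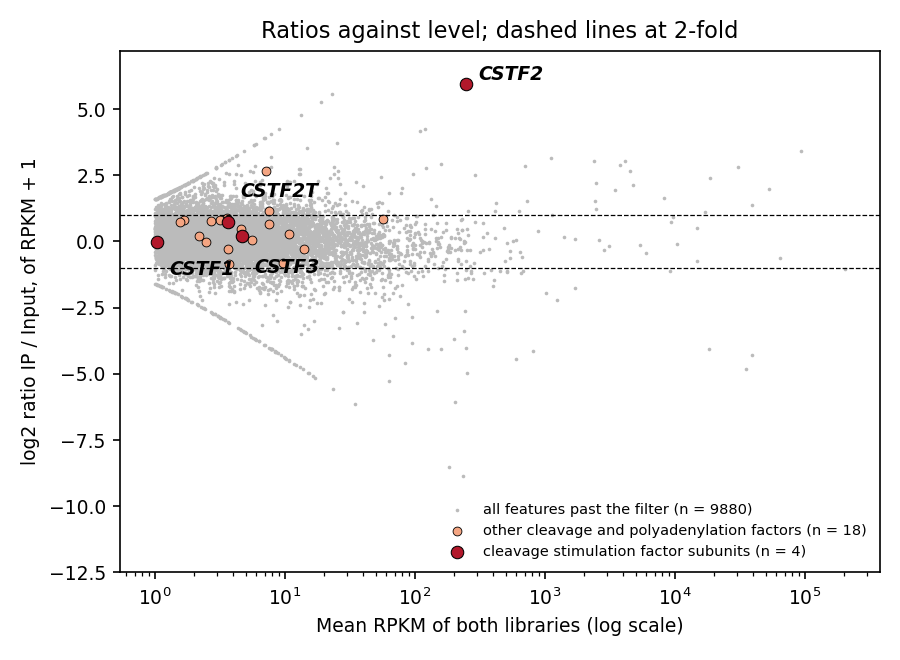
Log2 ratio of IP to Input (RPKM + 1) against the mean RPKM of both libraries (log axis) for 9880 features (grey), the 18 other cleavage and polyadenylation factors past the filter (orange) and the 4 cleavage stimulation factor genes (red), with dashed lines at 2-fold. CSTF2 at 5.94 is the highest point of the plot, and the other 3 red points lie between the lines.

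Feature length moved with the ratio among protein-coding features, but not in 1 direction over all features. Among protein-coding features the median log2 ratio was -0.72 under 1 kb (n = 139), -0.37 at 1 to 2 kb (n = 634), -0.04 at 2 to 4 kb (n = 2207) and 0.29 over 4 kb (n = 4645). Over all features the medians were 0.23, -0.17, -0.01 and 0.30 in the same order, and 28.0% of those under 1 kb were higher by 2-fold or more. CSTF2 falls in the class of 2 to 4 kb, where it lay 5.98 above the protein-coding median and 0 of the 2207 features were higher. The other 3 genes are over 4 kb long. Among protein-coding features of that class CSTF2T was 0.42 above the median, with 19.7% of features higher. The difference from the class median was -0.08 for CSTF3 and -0.31 for CSTF1, with 55.7% and 72.0% of features higher. The part of feature length in the ratios was not tested.

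**Figure D3:**
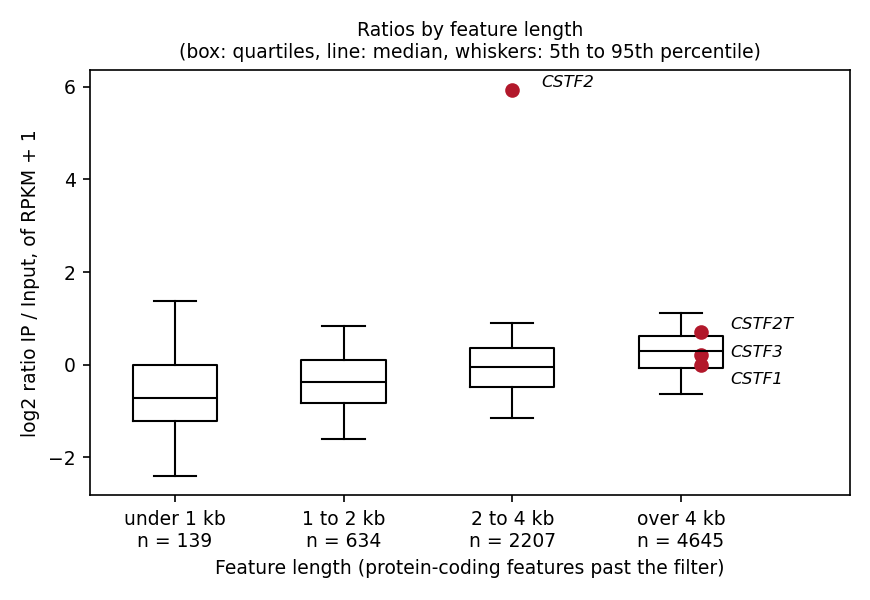
Log2 ratio of IP to Input (RPKM + 1) of protein-coding features past the filter in 4 classes of feature length, with boxes for the quartiles, lines for the median and whiskers from the 5th to the 95th percentile, and the 4 genes as red points. CSTF2 lies far above the whisker of its class, and CSTF1, CSTF2T and CSTF3 lie within the whiskers of theirs.

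The genes around each locus did not share the level of CSTF2. NOX1, for an NADPH oxidase, ends 2391 bases beyond CSTF2 on the opposite strand and had 4 IP reads and 0 Input reads, too few to pass the filter. With 0 Input reads its ratio has no value. The counting interval of that ratio ran from 1.95 upward without limit, so it lay wholly above 1, as that of CSTF2 did. AURKA, for the mitotic Aurora A kinase, starts 33 bases from CSTF1 and runs the other way. Its IP level was 5.62 RPKM (53 reads) and its Input level 4.13 RPKM (115 reads). The interval of its ratio of 1.36 (0.965 to 1.90) includes 1, as that of CSTF1 did. FAM210B, on the far side of AURKA, had 1.30 and 3.05 RPKM, a ratio of 0.426 (0.230 to 0.736). TCP11L1 overlaps CSTF3 on the opposite strand and had an IP level of 1.68 RPKM (29 reads) and an Input level of 1.06 RPKM (54 reads), giving a ratio of 1.59 (0.975 to 2.54). The protocols do not say that strand was kept, so reads in the overlap of CSTF3 and TCP11L1 cannot be told apart.

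Other features with nearly the same pair of levels were found for 3 of the 4 genes. Likeness was the distance between log2(RPKM + 1) values in the 2 libraries, over 7816 features without clone names, pseudogenes and small RNAs. Nearest to CSTF2T were BAP1, at an IP level of 4.79 and an Input level of 2.54 RPKM, MTHFD1L and OFD1, all within 0.025 log2 units. For CSTF3 they were ABCF2, at 5.10 and 4.18 RPKM, SNX9 and TLK1, and for CSTF1 they were WARS2, at 1.05 and 1.04 RPKM, SLC30A1 and GCA. CSTF2 had no such neighbour among the features searched. The nearest was STRN4, at an IP level of 230 and an Input level of 11.2 RPKM, at a distance of 1.24 log2 units, followed by HSPA9 at 2.34 and SPTBN1 at 2.40.

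A GU-rich sequence of the kind CSTF2 is known to contact was counted in the longest protein-coding transcript of each gene, on the sense strand, as TGTGT or GTGTG with overlapping matches included. CSTF1 held 14 matches (3.26 per kb), CSTF2 4 (1.93 per kb), CSTF3 4 (1.37 per kb) and CSTF2T 2 (0.487 per kb). The median over 7616 genes was 2.49 per kb, and 96.0% of them had at least 1 match. CSTF2 was below that median and CSTF2T was above only 5.24% of genes. Transcripts end at the cut, so the downstream elements themselves are not in these sequences.

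The other cleavage and polyadenylation factors give the setting of the pathway, from a list that was chosen with earlier results of these data known. All 19 were in the table and 18 passed the filter. PAPOLG, a poly(A) polymerase, did not, with a mean of 0.938 RPKM. On the RPKM + 1 scale, 2 of the 18 were higher by 2-fold or more and 0 were lower by as much. The shares of all features were 9.88% and 6.83%. With a pseudocount of 0.1 RPKM, 7 of the 18 were higher and 1 was lower. The median log2 ratio of the 18 was 0.56, against 0.17 for all features. Most of the 18 are over 4 kb long, a class with a protein-coding median of 0.29. SYMPK, for symplekin, the scaffold that binds CSTF2, had an IP level of 13.1 RPKM (447 reads) and an Input level of 1.26 RPKM (127 reads), giving a ratio of 10.4 (8.52 to 12.8). RBBP6, for a ubiquitin ligase that activates cleavage, had 10.8 and 4.33 RPKM, a ratio of 2.50 (2.16 to 2.89). At the low end, NUDT21, for the small subunit of cleavage factor I, had 2.35 and 5.12 RPKM, a ratio of 0.459 (0.327 to 0.630). Its log2 ratio on the RPKM + 1 scale was -0.87, under 2-fold. PPP1CB, for a protein phosphatase catalytic subunit, had 6.79 and 12.6 RPKM, a ratio of 0.541 (0.443 to 0.654). The ratio of CSTF2 was 6.7 times that of SYMPK, the highest of these 18.

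Genes for proteins that contact the complex directly were SYMPK, PCF11, CPSF1, SUB1, BARD1 and POLR2A, all 6 past the filter. Of these, 2 were at least 2-fold higher, SYMPK and POLR2A, and 0 at least 2-fold lower, with a median log2 ratio of 0.84. Over all features these shares were 9.88% and 6.83%, and the median was 0.17. All 6 are over 4 kb long. Among protein-coding features of that length the shares were 7.28% and 1.38%, and the median was 0.29. POLR2A, for the largest subunit of RNA polymerase II, had an IP level of 38.1 and an Input level of 6.45 RPKM, giving a ratio of 5.90 (5.30 to 6.57). PCF11, a cleavage factor II subunit that shares an interaction surface of CSTF2, had a ratio of 2.25 (1.81 to 2.77), and CPSF1, the partner of CSTF3, one of 2.13 (1.55 to 2.91), both under 2-fold on the pseudocount scale. SUB1, a transcriptional coactivator, was at 1.31 (1.16 to 1.49). BARD1, the partner of CSTF1, had an IP level of 0.819 RPKM (16 reads) and an Input level of 1.30 RPKM (75 reads), and the interval of its ratio, 0.631 (0.343 to 1.09), includes 1.

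Histone mRNAs are cut by a complex that shares CSTF2 with the poly(A) machinery. Of 11 genes listed for that reaction, all were in the table and 8 passed the filter, which ZNF473, LSM10 and LSM11 did not. SYMPK, in all 3 lists, was the 1 member at least 2-fold higher, and 0 were at least 2-fold lower. A count of 1 of 8 is near the share of 9.88% over all features, of which 6.83% were lower. The median log2 ratio of the 8 was 0.51, against 0.17 over all features. Most of the 8 are over 4 kb long, a class with a protein-coding median of 0.29. SRRT, for a cap-binding complex partner, had a ratio of 2.03 (1.82 to 2.27), under 2-fold on the pseudocount scale. SLBP, the stem-loop binding protein, had an IP level of 30.5 and an Input level of 41.9 RPKM, giving a ratio of 0.728 (0.620 to 0.851). CPSF3, the endonuclease that cuts both kinds of mRNA, had a ratio of 0.985 (0.629 to 1.504). CSTF1, CSTF2T and CSTF3 had ratios within the range of these 8 genes, and the ratio of CSTF2 was above all 8.

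**Figure D4:**
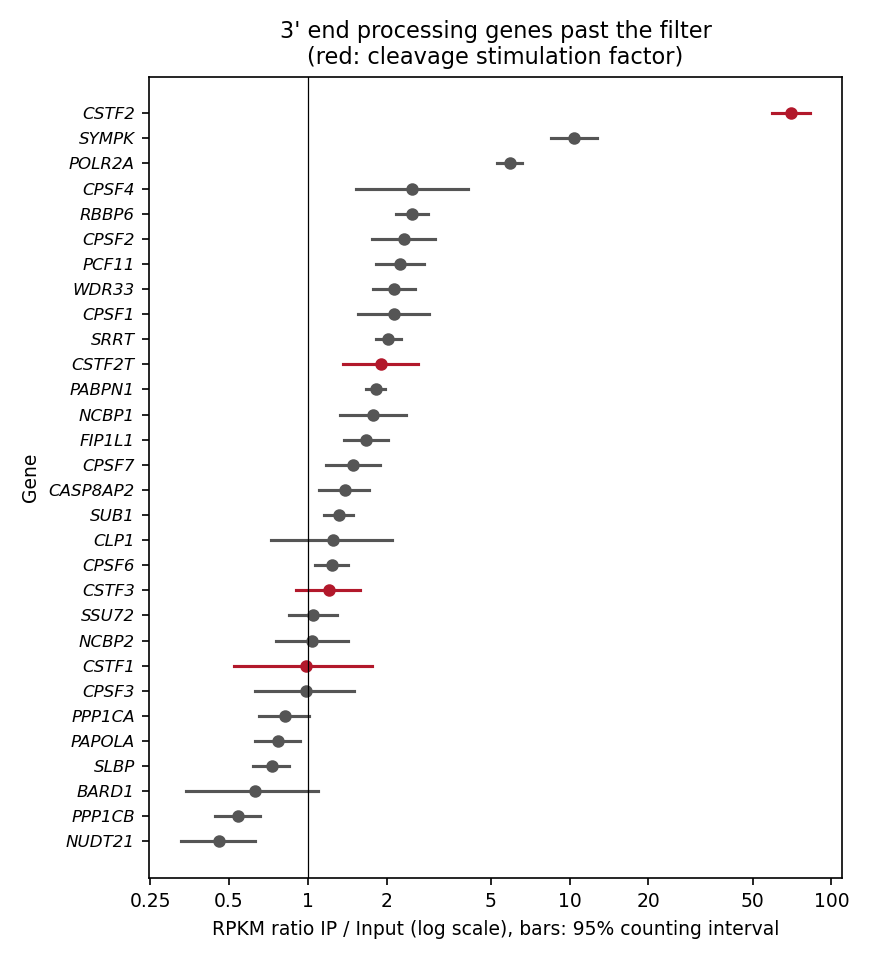
RPKM ratio of IP to Input on a log axis with 95% counting intervals for the genes of the 3 lists that passed the filter (grey) and the 4 cleavage stimulation factor genes (red), ordered by ratio. CSTF2 at 69.9 is followed by SYMPK at 10.4 and POLR2A at 5.90, and CSTF2T, CSTF3 and CSTF1 lie between 1.90 and 0.985.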

How the data were processed

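RNA captured with CSTF2 and input RNA of HUH7 cells were sequenced after fragmentation and random-hexamer priming, per the labels' protocols. FastQC 0.12.0 and the build hg38 appear in the submitters' processing notes. The aligner, the counter and the annotation used are not stated there. The table holds RPKM per library and a log2 fold change made by the authors, per the file headers. RPKM divides reads by feature length and library depth, so 1 abundant class of RNA lowers all other values.

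From the deposited RPKM and log2 values, whole reads and lengths were recovered for 14913 of 14914 features, within 0.01 reads, from the relation RPKM = reads per length and depth and a fold change with a mean prior of 0.125 reads. PGK1 was not resolved. The recovery was tested on data simulated with the same relation and prior, which cannot show that these hold for the deposited values. Ratio intervals are exact conditional (Clopper-Pearson) 95% intervals. Names were matched to GENCODE 29 (GRCh38), where 12660 belonged to 1 gene. Of the 12659 of these with recovered reads, 11436 had a recovered length equal to the GENCODE 29 exon length. Sequences are from its transcripts. Features were called protein-coding by the match of names, so unmatched names are not in the protein-coding sets.

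The members and lists were chosen with earlier results of these data known. Named were the 4 genes, list members past 2-fold, the 2 highest and 2 lowest of each list, all direct partners, listed genes within 50 kb of a member, and the 3 features nearest in both levels. Others named here are the markers, PAPOLG and the histone genes under the filter. Python 3.11.15, numpy 2.4.6, pandas 2.3.3, scipy 1.17.1 and biopython 1.88 were used.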

Additional observations from a re-analysis of the deposited data

How the results depend on the processing

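No paired analysis was possible because each group has 1 library, and for the same reason no library could be left out. The order CSTF2, CSTF2T, CSTF3, CSTF1 by ratio was the same with pseudocounts of 0, 0.1 and 5 RPKM. At these levels no pseudocount could have changed that order. The gap between IP and Input RPKM was by far the largest for CSTF2. For CSTF2T this gap was larger than for CSTF3, with a lower Input level. The IP level of CSTF1 was below its Input level. The 3 scaling settings treat all features of a library alike and could hardly change the order. Neither the pseudocounts nor the scaling settings are therefore a check of the order. The log2 ratio of CSTF2 (5.94) was 5.36 with a pseudocount of 5 RPKM, 5.61 with trimmed mean scaling and 5.41 with the reads of CSTF2T added and no pseudocount. CSTF3 was 0.22 as reported and -0.05 with trimmed mean scaling, which divides IP values by 1.26. The CSTF2T share per length became 1.80% (IP) and 40.3% (Input) when reads were not divided by length.

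Features at least 2-fold higher (976) numbered 1830 and 186 with pseudocounts of 0.1 and 5 RPKM, 574 with trimmed mean scaling, 1541 with reads outside mitochondrial genes as the depth, 2569 and 151 at thresholds of 1.5-fold and 4-fold, 327 with a filter of 5 RPKM and 632 with 20 reads or more. Features lower (675) numbered 1023 and 295, 1059 with trimmed mean scaling, 407 with that filter, and 1484 and 149 at those folds. The higher share of calls was 59.1%, against 42.0% centred on the median and 35.2% with trimmed mean scaling. The depth outside mitochondrial genes raised the RPKM of both libraries nearly alike, as these genes took 61.8% of IP and 61.6% of Input reads. With the pseudocount kept at 1 RPKM, that setting acted much like a smaller pseudocount. The settings with 20 reads or without SYMPK were chosen after seeing the data.

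Of the 18 other processing factors, 2 were higher as reported, 7 and 1 with pseudocounts of 0.1 and 5 RPKM, 1 centred, 1 with trimmed mean scaling, 4 on the depth outside mitochondrial genes, 9 and 1 at 1.5-fold and 4-fold, and 1 without SYMPK. Lower were 0 as reported, 1 with a pseudocount of 0.1 RPKM, 1 centred, 2 with trimmed mean scaling, 1 on the non-mitochondrial depth and 2 at 1.5-fold. Their median (0.56) was 0.27 with a pseudocount of 5 RPKM, 0.39 centred and 0.28 with trimmed mean scaling.

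For the direct partners, 2 were higher as reported, 4 with a pseudocount of 0.1 RPKM, 4 at 1.5-fold and 1 without SYMPK. Their median (0.84) was 1.09 and 0.42 with pseudocounts of 0.1 and 5 RPKM, 0.66 centred and 0.57 with trimmed mean scaling. It was 1.001 on the non-mitochondrial depth and 2.39 with a filter of 5 RPKM. Only SYMPK, POLR2A and SUB1 passed that filter, so 2.39 is the log2 ratio of POLR2A. For the histone list, 1 was higher as reported, 3 with a pseudocount of 0.1 RPKM, 2 on the non-mitochondrial depth, 4 at 1.5-fold and 0 without SYMPK. Its median (0.51) was 0.63 and 0.24 with those pseudocounts, 0.33 centred and 0.24 with trimmed mean scaling. It was 0.19 with no filter, 0.98 with a filter of 5 RPKM and 0.37 without SYMPK. Only SYMPK, SRRT and SLBP passed the filter of 5 RPKM, so 0.98 is the log2 ratio of SRRT. Leaving SYMPK out lowers a count of higher genes by construction, since SYMPK was among them. On the non-mitochondrial depth the RPKM of both libraries rose nearly alike while the pseudocount stayed at 1 RPKM. Other causes of these shifts were not tested. Depth limits CSTF1 most, with 16 reads in the IP.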
